A study of Mus musculus with 15 samples.

Results

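The adult mouse cerebellum at P56, 56 days after birth, was set against the cerebellum at P7, 7 days after birth, in RNA held by tagged ribosomes of Purkinje cells. The comparison took the 3 arrays titled P56 and the 3 arrays titled P7, chosen by their labels alone, which are 6 of the 15 arrays of a series that also sampled P0, P15 and P21, and it covered all 22092 probe sets. Every mouse, at P56 and at P7, carried Tg(Pcp2-L10a-Egfp), a transgene that uses the Pcp2 promoter, which is active in Purkinje cells, to make the ribosomal protein L10a with an EGFP tag. The capture therefore follows wherever that promoter is active, and RNA of other cells that stays on the beads is measured too. Cerebella were pooled before homogenisation, tagged polysomes were taken out with antibodies against GFP, and the purified RNA was hybridised to Affymetrix arrays. The labels number the arrays 1 to 3 at each age and do not say that these came from separate pools, so each p-value measures the spread between arrays, which may be technical. Unpurified cerebellar RNA was not used here, and all values are levels in the captured RNA. Neither a scan date nor a batch was used here, and a batch that followed age cannot be told apart from it.

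Purkinje cells are the output neurons of the cerebellar cortex. In the first postnatal weeks of the mouse they lose most of their climbing fibre inputs, grow a flat dendritic tree and receive parallel fibre synapses from granule cells, whose precursors divide in the external granular layer and then migrate inward past the Purkinje cell bodies. By adulthood the external layer is gone, synapses are established, and some receptors, channels and adhesion proteins of the growing neuron have been exchanged for others.

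Between the ages, 5601 probe sets (25.4%) were higher at P56 than at P7 and 7566 (34.2%) were lower, at an adjusted p under 0.05 in limma with Benjamini-Hochberg adjustment over all probe sets. With 1 probe set per gene, 4793 of 19500 genes (24.6%) were called higher and 6811 (34.9%) lower. These are the shares over all genes for the counts below, and the brighter genes had other shares, given further on. On the deposited values large falls outnumbered large rises: 1368 genes (7.02%) were called lower by at least 1 on the log2 scale, a 2-fold difference, and 287 genes (1.47%) were called higher by at least 1. The same counts over probe sets were 1510 (6.84%) lower and 450 (2.04%) higher, against 1004 lower and 678 higher after quantile normalization and 846 lower and 871 higher with each array's median set to 0, where the direction turned. The split of the calls depended on the scaling. The array medians averaged 7.60 at P56 and 7.86 at P7, and of the called probe sets 42.5% were higher on the deposited values, 51.2% after quantile normalization and 71.9% with each array's median set to 0. Setting the medians to 0 added 0.26 to each log2 change, and 55.1% of genes were then called higher and 22.4% lower. After quantile normalization 28.1% of genes were called higher and 28.3% lower. In the brighter part of the genes, those at or above the median of the mean signal, 20.8% were called higher and 54.4% lower on the deposited values, with a median log2 change of -0.25. Counts from lists of bright genes are to be read against these shares as well. Directions are given below on the deposited values, with the scaling under which a group's balance turned round.

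**Figure D1:**
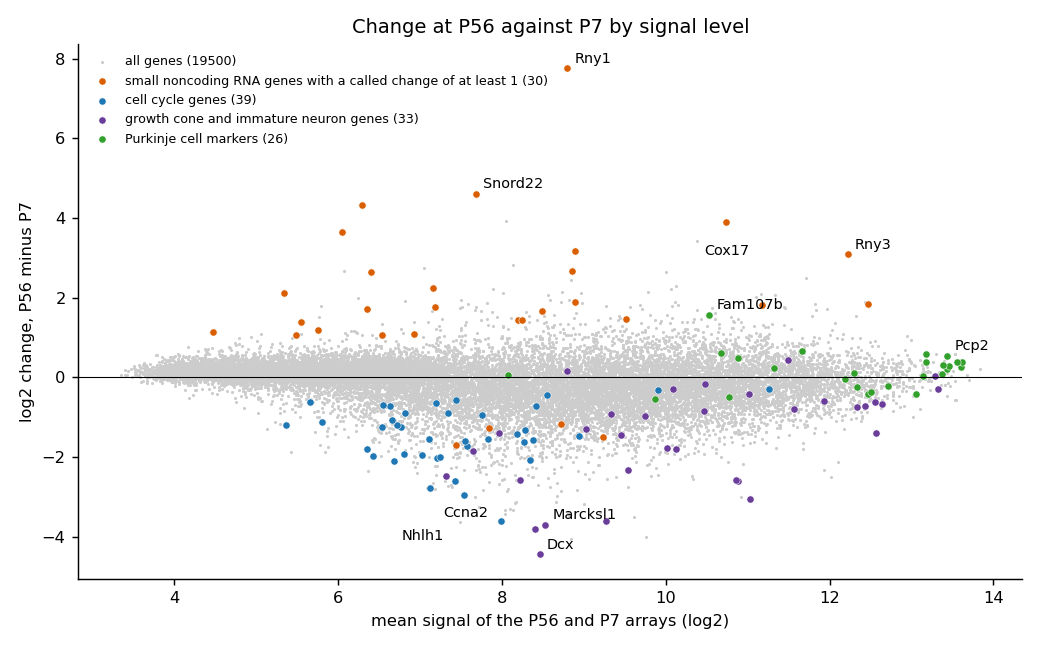
Log2 change at P56 against P7 (vertical) by the mean log2 signal of the 6 arrays (horizontal), 1 grey point per gene for 19500 genes, with small noncoding RNA genes that changed by at least 1, cell cycle genes, growth cone genes and Purkinje cell markers in colour. The cell cycle and growth cone genes lie mostly below 0, the Purkinje cell markers lie near 0 at high signal, and Rny1 stands highest with a log2 change of 7.76.

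The arrays at P56 correlated with each other at 0.995 over all probe sets, the arrays at P7 at 0.999, and pairs across the ages at 0.957 to 0.962. The median standard deviation of a gene was 0.12 at P56 and 0.053 at P7, so the P56 arrays scattered more. An exact permutation of 3 arrays against 3 could not give a p below 0.1, and the arrays of the ages did not overlap for 64% of genes. Lack of overlap is thus common, and naming genes for a large change favours it. The lower quartile of all signals on the array where it was lowest was 5.96 at P56 and 5.88 at P7, and a gene whose mean lay under it is called under the lower quartile here and may be no more than background.

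Purkinje cell markers were high at both ages, and their average changed little on the deposited values. The 26 measured of 30 listed averaged 12.34 to 12.35 on the P56 arrays and 12.16 to 12.18 on the P7 arrays, far above the array medians. Of the 26, 14 rose and 7 fell, at a median of 0.23 on the log2 scale, and the largest change of any of them was 1.57. The median over the brighter genes was -0.25. After quantile normalization 14 markers rose and 7 fell (median 0.19), and with the medians set to 0, 19 rose and 2 fell (median 0.49). Pcp2, the gene whose promoter drives the tag, had log2 signals of 13.67, 13.75 and 13.69 at P56 and 13.18, 13.15 and 13.16 at P7, a rise of 0.54 (SE 0.06, adjusted p = 4.87e-07 in limma). The P56 values were all above the P7 values. Rpl10a, the ribosomal protein that carries the tag, had 12.54, 12.51 and 12.56 at P56 and 13.06, 12.96 and 13.00 at P7, lower at P56 in every array (change -0.47, and -0.20 with the medians set to 0). Its other 3 probe sets changed by -0.52 to -0.38. The array cannot tell the tagged from the native Rpl10a RNA.

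Calcium buffers of Purkinje cells lay near the top of the scale. Calb1 (calbindin) had 13.73, 13.73 and 13.81 at P56 and 13.42, 13.31 and 13.36 at P7. Pvalb (parvalbumin) had 13.78, 13.75 and 13.68 at P56 and 13.49, 13.46 and 13.48 at P7. Both rose, by 0.39 and by 0.26. Other markers that rose were Gng13 (0.59), a G protein gamma subunit, the homeodomain factors Lhx1 (0.65) and Lhx5 (0.62), Car8 (0.39), a binding partner of the IP3 receptor, Ppp1r17 (0.38), a phosphatase inhibitor, Inpp5a (0.32), an IP3 phosphatase, Pcp4 (0.28), a calmodulin-binding protein, and Rgs8 (0.22), a G protein regulator, whose call was lost after quantile normalization. Fam107b rose most, with 11.29, 11.45 and 11.21 at P56 and 9.54, 9.84 and 9.87 at P7. Skor2 (-0.55), a corepressor needed for Purkinje cell differentiation in mice, Foxp2 (-0.49), a forkhead factor, Slc1a6 (-0.43), the Purkinje cell glutamate transporter EAAT4, Dner (-0.41), a Notch ligand, and Gad1 (-0.37), which makes GABA, fell; the calls of Slc1a6 (-0.17), Dner (-0.15) and Gad1 (-0.11) were lost with the medians set to 0. Itpka (-0.24) and Rora (-0.21) fell on the deposited values, and their changes were 0.02 and 0.05 with the medians set to 0. Icmt rose by 0.23, and its call was lost without P7 replicate 1. Arhgef33, Atp2a3, Homer3, Stk17b and Syndig1l were not called, with changes between -0.05 and 0.12.

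Markers of other cerebellar cells were present at both ages, and their levels are given here because several gene groups below move with them. In pooled RNA of this kind, fewer cells of a type and less RNA per cell cannot be told apart. Granule cell markers averaged 10.36 to 10.60 on the P56 arrays and 10.46 to 10.58 on the P7 arrays, and of 23 measured 10 rose and 8 fell. Gabra6 (0.96), a GABA-A receptor subunit, Cbln3 (0.94), a synapse organiser, and Calb2 (0.86), calretinin, rose, while Kcnk9 (-1.95), a leak potassium channel, Reln (-1.27), the layering signal reelin, and Barhl1 (-1.19), a homeodomain factor, fell. Barhl1 and Pax6 are also in the list of granule cell progenitor genes given below, so the lists are not independent. Astrocyte and Bergmann glia markers averaged 9.02 to 9.15 at P56 and 9.48 to 9.54 at P7 (6 of 24 rose, 13 fell). Their median was -0.24, near the -0.25 of the brighter genes. It was -0.01 after quantile normalization (9 rose, 10 fell) and 0.03 with the medians set to 0 (8 rose, 10 fell). Among those that fell, Fabp7, a fatty acid binding protein of radial glia, had 10.66, 10.92 and 10.71 at P56 and 13.30, 13.25 and 13.23 at P7, with no overlap, and Tnc (-2.73), Gli3 (-1.87) and Aldh1l1 (-1.74) fell. Dao, D-amino acid oxidase, rose by 1.54.

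Oligodendrocyte markers averaged 8.64 to 8.71 at P56 and 9.08 to 9.24 at P7, and 14 of 22 fell. Both precursor genes (Pdgfra, -1.29, and Gpr17, -1.47) and myelin genes (Mbp, -1.16, and Enpp6, -1.13, an enzyme of newly formed oligodendrocytes) were among them, although the list's mean had stood higher at P21, at 9.84. Ermn, a myelin cytoskeleton gene, rose by 1.03. Markers of endothelial and mural cells averaged 6.69 to 6.81 at P56 and 7.12 to 7.13 at P7 (1 of 23 rose, 15 fell), led by Rgs5 (-1.42) and Emcn (-1.29, under the lower quartile at P56). Interneuron markers averaged 7.70 to 7.85 at P56 and 8.23 to 8.35 at P7 (2 of 17 rose, 9 fell). Their median was -0.23, near the -0.25 of the brighter genes. The falls were led by Gjd2 (-2.34), a gap junction protein, Sst (-1.96), somatostatin, Eomes (-1.21), of unipolar brush cells, and Slc6a5 (-1.05), the glycine transporter. Lgi2 (0.64), named after its values were seen, and Grm2 (0.27, with ages that overlapped) rose. Microglial markers averaged 6.44 to 6.50 at P56 and 6.50 to 6.56 at P7 (2 of 19 rose, 3 fell, with 9 higher and 0 lower at medians set to 0). Meningeal and choroid plexus markers averaged 7.68 to 8.04 at P56 and 7.84 to 7.91 at P7, and 4 of 20 rose and 6 fell, a balance that turned round under both other scalings. Of 3 measured red blood cell markers, Alas2, an enzyme of haem synthesis, fell by 1.03, with 2 higher and 1 lower at medians set to 0.

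**Figure D2:**
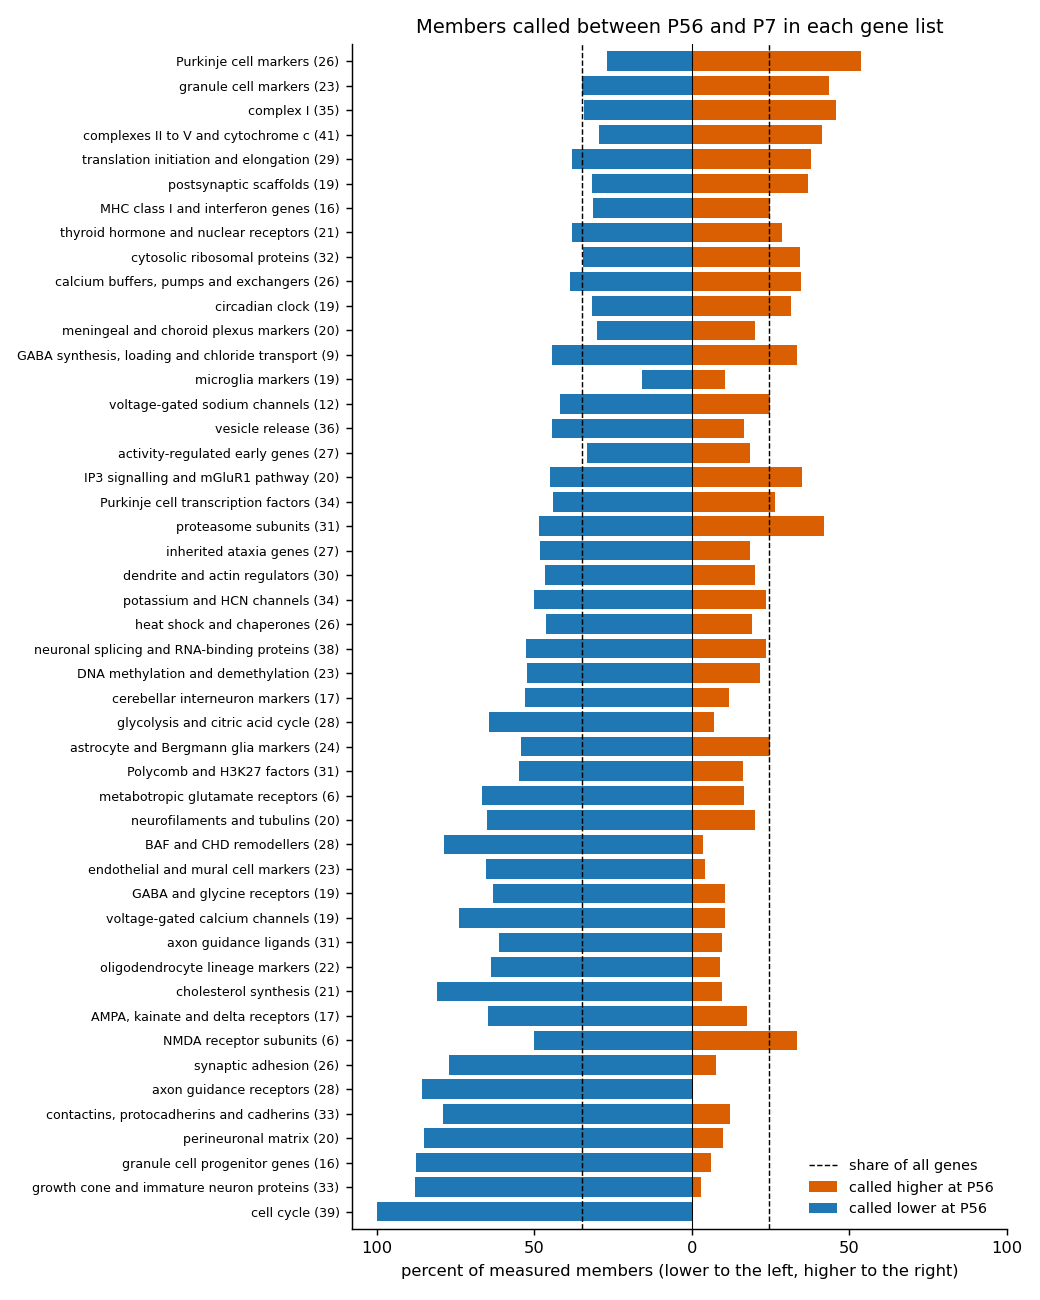
Percent of the measured members of each gene list called higher (to the right) and lower (to the left) at P56 than at P7, with the number of members in brackets and dashed lines at the shares of all genes, 24.6% and 34.9%. Cell cycle, growth cone, granule cell progenitor and axon guidance receptor genes stand at the lower end, and few or none of their members were called higher.

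Genes of cell division were lower at P56 without exception. All 39 measured of 40 cell cycle genes were called lower, 27 of them by at least 1, with a median change of -1.44, against -0.0037 over all genes. With the medians set to 0, and after quantile normalization, 36 were called lower and 0 higher. Ccna2, cyclin A2, had 6.31, 5.97 and 6.27 at P56 and 9.91, 9.79 and 9.70 at P7, a change of -3.61 (SE 0.14, adjusted p = 9.1e-13 in limma). Plk1, a mitotic kinase, had 5.94, 6.43 and 5.82 at P56 and 9.23, 8.89 and 8.92 at P7. Top2a, the topoisomerase of dividing cells, had 5.56, 5.78 and 5.86 at P56 and 8.66, 8.39 and 8.46 at P7. In each the gap between the ages was several times the spread within an age. Mki67, the proliferation antigen, and Bub1, a spindle checkpoint kinase, changed by -2.61 and -2.09. At P56, 9 of the 39 genes were under the lower quartile, Top2a and Bub1 included, so their falls may be cut short by background. Purkinje cells no longer divide after birth, and genes of granule cell progenitors moved with the cell cycle genes: their mean was 7.72 to 7.78 at P56 and 9.11 to 9.17 at P7, and 14 of 16 fell (1 rose). Among them Atoh1, the factor that defines these progenitors, had 6.44, 6.22 and 5.67 at P56 and 8.22, 8.04 and 8.08 at P7, and Nhlh1 (-3.63, under the lower quartile at P56), a factor of cells leaving division, Sox11 (-2.59), Ccnd2 (-2.51), cyclin D2, and Mycn (-2.19), which sustains division downstream of sonic hedgehog, also fell. The part of these cells in the fall of the cell cycle genes was not tested.

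Promoters of the cell cycle genes are shown because the members moved together. Those printed were taken from the largest falls among members with 1 promoter sequence that holds the motif. Each was therefore bound to show it. RefSeq sequences on GRCm38.p6, from 250 bases before a gene's start to 50 after it, were found for 32 of the 39 genes (35 promoters), and were searched on both strands for CCAAT, the box bound by the factor NF-Y, and for TTTCCCGC and TTTGGCGC, sites of E2F factors; neither motif contains the other. CCAAT was in 31 of 35 promoters (88.6%), against 37.4% of all 32851 promoters, 39.6% of those of genes that fell by at least 1, and 38.2% of those of genes that rose by at least 1. An E2F site was in 5 of 35 (14.3%), against 1.56% of all and 2.22% of those of genes on the array. Among genes that fell by at least 1 it was in 2.77% of promoters, and among those that rose by at least 1 in 3.37%. A match describes the letters and shows no binding. Printed 5′ to 3′ along the gene, with capitals marking CCAAT or its reverse ATTGG (for Mcm6, a subunit of the replication helicase with a change of -1.95 and named after its value was seen, the capitals mark the E2F letters), Plk1 (chr7:122159185-122159484, plus strand), Top2a (chr11:99024140-99024439, minus strand), Mki67 (chr7:135716330-135716629, minus strand) and Mcm6 (chr1:128359656-128359955, minus strand) read:
Plk1: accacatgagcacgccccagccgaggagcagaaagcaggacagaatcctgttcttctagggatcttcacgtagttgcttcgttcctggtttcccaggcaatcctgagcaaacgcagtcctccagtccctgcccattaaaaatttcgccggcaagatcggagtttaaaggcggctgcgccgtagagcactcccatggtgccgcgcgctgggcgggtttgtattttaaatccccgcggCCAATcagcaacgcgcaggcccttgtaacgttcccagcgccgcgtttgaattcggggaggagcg
Top2a: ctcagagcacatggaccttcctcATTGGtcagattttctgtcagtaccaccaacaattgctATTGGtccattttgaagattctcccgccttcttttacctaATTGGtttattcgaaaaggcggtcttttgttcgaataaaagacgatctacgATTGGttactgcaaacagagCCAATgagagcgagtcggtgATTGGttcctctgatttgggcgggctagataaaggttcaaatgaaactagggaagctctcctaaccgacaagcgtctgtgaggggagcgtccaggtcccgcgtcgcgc
Mki67: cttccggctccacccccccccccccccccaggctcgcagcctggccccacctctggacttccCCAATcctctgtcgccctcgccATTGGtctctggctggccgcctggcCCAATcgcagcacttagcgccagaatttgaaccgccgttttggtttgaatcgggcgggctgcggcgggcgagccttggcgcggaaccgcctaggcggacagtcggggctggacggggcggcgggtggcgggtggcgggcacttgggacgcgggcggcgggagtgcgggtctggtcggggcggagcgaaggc
Mcm6: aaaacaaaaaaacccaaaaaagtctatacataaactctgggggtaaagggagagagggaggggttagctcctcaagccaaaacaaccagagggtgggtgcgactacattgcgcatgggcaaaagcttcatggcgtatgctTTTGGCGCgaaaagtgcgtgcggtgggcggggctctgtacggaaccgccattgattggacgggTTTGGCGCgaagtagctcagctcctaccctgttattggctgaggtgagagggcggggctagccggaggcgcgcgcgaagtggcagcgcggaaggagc
Plk1 has 1 CCAAT, close before its start, Mki67 has 3 and Top2a has 6.

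The growth machinery of young neurons was lower at P56 too. Of 33 growth cone and immature neuron genes 29 fell, 17 by at least 1, and 1 rose, with a median of -1.29; the balance held under quantile normalization (2 higher, 28 lower) and with the medians set to 0 (3 higher, 26 lower). Dcx, doublecortin, a microtubule protein of migrating neurons, had 6.28, 6.30 and 6.13 at P56 and 10.82, 10.66 and 10.58 at P7, and its change of -4.45 (SE 0.08, adjusted p = 2.75e-16 in limma) was the largest fall of any gene under the naming rule. Marcksl1, which links membrane and actin, had 6.33, 7.02 and 6.67 at P56 and 10.60, 10.37 and 10.15 at P7. Dpysl3, a collapsin response protein, had 7.41, 7.60 and 7.38 at P56 and 11.17, 11.02 and 11.06 at P7. These values left wide gaps between the ages. Cd24a, a surface protein of newborn neurons (-3.82), and Tubb2b (-3.06), a tubulin of young neurons, fell. The size of the change differed within the group: Stmn2 (0.03), a growth cone protein named after its values were seen, was not called. Gap43 (-0.30) and Mapt (-0.42), named likewise, lost their calls with the medians set to 0, and Gap43 also after quantile normalization. Dcx, Cd24a, Sox11 and Tubb2b are made by young granule cells as well, and their part was not tested.

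Other genes among the 15 largest falls were Islr2 (-4.06), a membrane protein of growing axons, Nt5dc2 (-4.01), Ctxn1 (-3.52), cortexin, Zmat4 (-3.50), a zinc finger gene, Dbpht2 (-3.44), Pla2g5 (-3.42), a phospholipase, Uts2 (-3.37), the peptide urotensin, Itga5 (-3.34), an integrin, and St6galnac5 (-3.34), which adds sialic acid to gangliosides. Nt5dc2 had 7.77, 7.68 and 7.83 at P56 and 11.83, 11.71 and 11.75 at P7, a tight pair of groups. Pla2g5 fell late: it stood at 10.92 at P15 and 10.74 at P21, no lower than its 10.48, 10.52 and 10.54 at P7, against 7.05, 7.29 and 6.95 at P56. The neurofilament and tubulin list shares genes with the growth cone list, Tubb2b, Tuba1a and Map1b among them. It had 13 of 20 lower and 4 higher (7 and 6 with the medians set to 0), with Tuba1a (-1.39), Tubb5 (-1.30), Tubb2a (-0.92) and Map1b (-0.71) among the falls.

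Axon guidance receptors, which read attractive and repulsive cues, fell as a group, with no member called higher on the deposited values. Of 28, 24 were called lower, 10 by at least 1, with a median of -0.77 (2 higher and 22 lower after quantile normalization, 3 and 22 with the medians set to 0). Dcc, the netrin receptor, had 6.77, 6.35 and 6.21 at P56 and 8.52, 8.48 and 8.37 at P7. The falls took in Neo1 (-1.33), another netrin receptor, and the semaphorin receptors Plxna1 (-1.50), Plxnc1 (-1.38) and Plxna2 (-1.35). Of 31 ligands 19 fell and 3 rose (median -0.48; 14 and 7 after quantile normalization, 16 and 9 with the medians set to 0), led by Slit2 (-1.96), a repellent read by Robo receptors, and the semaphorins Sema6a (-1.93), Sema5a (-1.43), Sema3d (-1.37, under the lower quartile at P56) and Sema3a (-1.28). Sema6a, a membrane-bound semaphorin, had 9.36, 9.44 and 9.69 at P56 and 11.46, 11.39 and 11.43 at P7.

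Adhesion molecules followed. Among 33 contactins, protocadherins and cadherins 26 fell and 4 rose (median -0.79; 20 and 6 with the medians set to 0). Pcdh11x, a protocadherin, had 5.75 to 6.27 on the P56 arrays and 8.74 to 8.79 on the P7 arrays, and Cdh9 (-2.59), Cdh13 (-2.12) and the contactin Cntn5 (-1.46) also fell. Pcdh20 went the other way, with 8.48, 8.50 and 8.59 at P56 and 6.82, 6.81 and 6.84 at P7, a rise of 1.70 (SE 0.11, adjusted p = 6.09e-10 in limma). Of 26 synaptic adhesion genes 20 fell and 2 rose (median -0.74), with Ptprf (-1.54), a receptor phosphatase, Lrrtm2 (-1.12) and Nlgn1 (-1.08), postsynaptic partners of neurexins, and the secreted C1ql1 (-1.36), the climbing fibre protein that binds a receptor on Purkinje cells, and Cbln2 (-1.01, under the lower quartile at P56).

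Of 20 genes of the perineuronal matrix, the proteoglycan lattice around neurons, 17 fell and 2 rose (median -0.80; 14 and 3 with the medians set to 0). Vcan, versican, had 6.07, 6.05 and 5.93 at P56 and 8.73, 8.66 and 8.81 at P7. Ncan, neurocan, had 8.01, 7.97 and 8.05 at P56 and 10.60, 10.48 and 10.59 at P7. Both are proteoglycans of the juvenile matrix. Tnc, tenascin C, made by glia and also in the glial list (-2.73), Crtac1 (-1.32) and Chst11 (-1.07), a chondroitin sulfotransferase, fell. The link protein genes Hapln4 (0.37) and Hapln2 (0.49) were the ones that rose, and they were named after their values were seen.

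Glutamate receptors changed subunit by subunit. NMDA receptors are tetramers whose GluN2 and GluN3 subunits set their kinetics, and of 6 measured 2 rose and 3 fell (3 and 3 under both other scalings). Grin2b, the GluN2B subunit of young synapses, had 6.70, 6.85 and 6.17 at P56 and 8.39, 8.26 and 8.31 at P7. Grin2d, another subunit of young neurons, had 6.98, 7.05 and 7.11 at P56 and 9.03, 8.97 and 9.05 at P7, and Grin3a fell by 1.59. Grin2c, the GluN2C subunit of mature granule cells, had 8.80, 8.63 and 8.78 at P56 and 7.81, 7.97 and 8.22 at P7. The P56 values of Grin2b, Grin2d and Grin3a lay below all P7 values, and those of Grin2c above. Grin2a rose by 0.32, with a call lost without P56 replicate 3 and without P7 replicate 1, and Grin3b (0.18, adjusted p = 0.0577 in limma) was not called. Granule cell markers, Grin2c and Gabra6 among them, are given above, and their part in these changes was not tested.

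Of 17 AMPA, kainate and delta receptor genes 11 fell and 3 rose (median -0.61). The AMPA subunits, named after their values were seen, were divided. Gria3 (0.39) and Gria4 (0.38) rose, Gria2 (0.04) was not called, and Gria1 (-0.20) fell. The call of Gria1 was lost under both other scalings. Grid1, the delta receptor GluD1 (-1.69), Shisa7 (-1.53), a receptor partner, the kainate subunits Grik5 (-1.29) and Grik2 (-0.90), and Nptx2 (-0.83), a secreted protein that clusters receptors, fell. Of 6 metabotropic receptors 1 rose and 4 fell (2 and 3 with the medians set to 0). Grm5, the receptor mGlu5, had 6.97, 6.82 and 6.84 at P56 and 9.44, 9.44 and 9.50 at P7, a change of -2.58 (SE 0.07, adjusted p = 5.58e-14 in limma). Grm3 (-1.33) and Grm7 (-0.46) fell, while Grm4, a receptor of granule cell terminals, was not called (0.01). Grm8 (-0.26, with ages close but apart) and Grm2 (0.27, with ages that overlapped) were called, each lost its call when some single arrays were left out, and the change of Grm8 was 0.0086 with the medians set to 0.

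Of 19 GABA and glycine receptor genes 12 fell and 2 rose (median -0.42; 10 and 7 with the medians set to 0). Gabra3, the GABA-A alpha 3 subunit, had 7.06, 7.12 and 7.36 at P56 and 10.17, 10.16 and 10.15 at P7. Glra1, a glycine receptor subunit, had 6.47, 6.96 and 6.83 at P56 and 9.09, 9.39 and 9.42 at P7. Glra2, the glycine receptor subunit of immature neurons, had 5.61, 6.02 and 5.65 at P56 and 8.20, 8.22 and 8.11 at P7. None of these overlapped, as was so for 64% of all genes, and Glra2 was under the lower quartile at P56. Gabra2 (-1.78) and Gabrg3 (-1.39) fell as well. Gabra6 and, named after its values were seen, Gabra4 (0.55) rose. Interneuron markers, which include the glycine transporter, averaged lower at P56 on the deposited values, as given above, and their part was not tested. In the list of GABA synthesis, loading and chloride transport, 3 of 9 rose and 4 fell, a balance that turned round under both other scalings. Slc32a1 (0.49), which loads vesicles with GABA, Slc12a5 (0.33), the chloride exporter KCC2, and Gad2 (0.31) rose, and Slc6a11 (-1.92), a glial GABA transporter, Abat (-0.73), which degrades GABA, Clcn3 (-0.51) and Gad1 fell. Slc12a2 (-0.04), the chloride importer NKCC1, and Clcn2 (0.10) were not called.

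**Figure D3:**
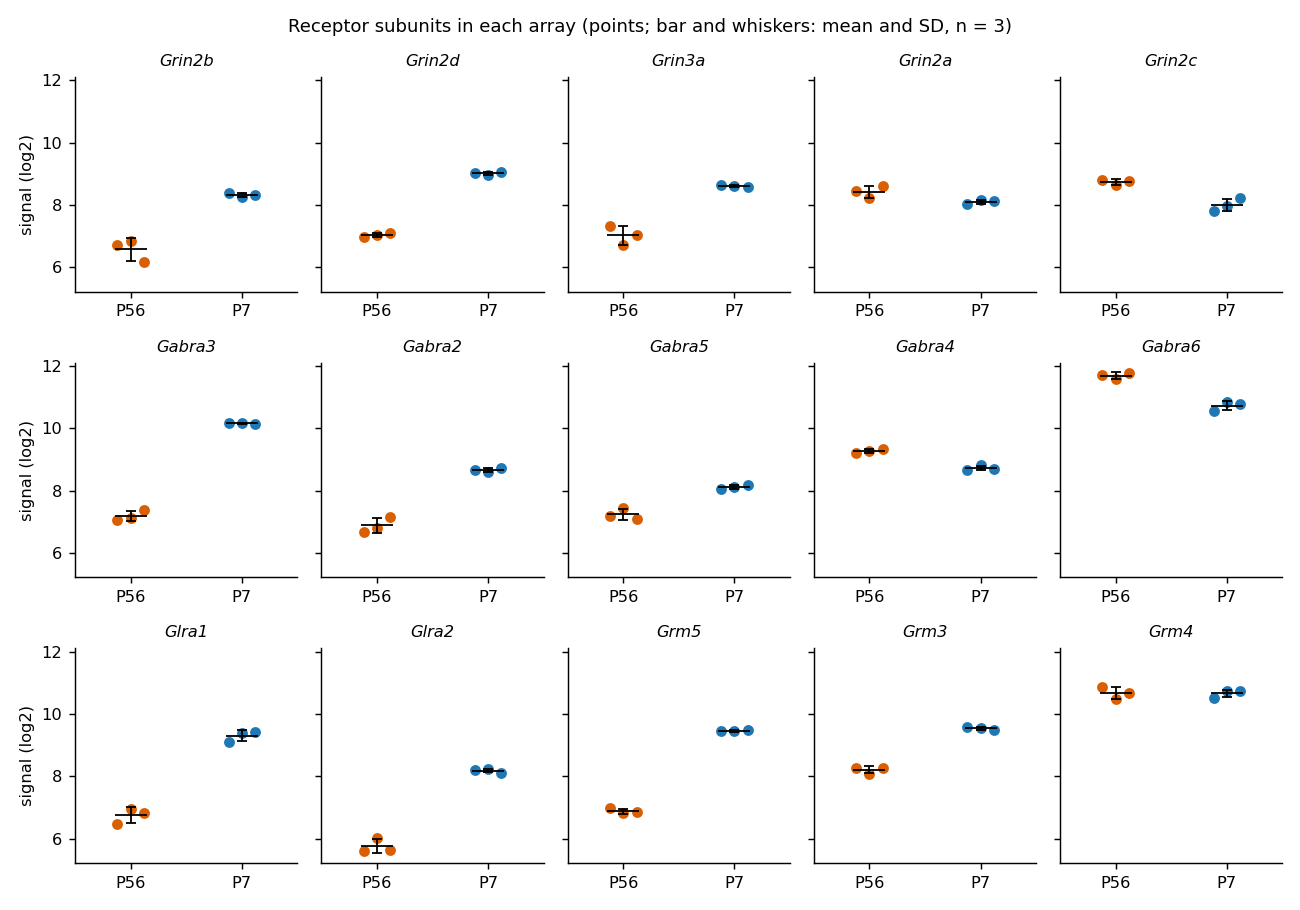
Log2 signal of 15 receptor subunits on each array, P56 left and P7 right in each panel, with points for arrays and a bar with whiskers for mean and SD (n = 3). Gabra5 and Gabra4 were added after their values were seen. Grin2b, Grin2d, Grin3a, Gabra3, Gabra2, Glra1, Glra2, Grm5 and Grm3 sit lower at P56, Gabra6 and Grin2c sit higher, and the points of Grm4 overlap.

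Voltage-gated channels of the calcium family mostly fell (14 of 19, with 2 rises and a median of -0.44). Among them were Cacna2d1 (-1.72) and Cacnb1 (-1.65), auxiliary subunits, Cacna1b (-1.35), the N-type channel, Cacna1e (-1.12), the R-type channel, and Cacng4 (-1.33), a partner of AMPA receptors. Sodium channels moved in both directions, 3 of 12 higher and 5 lower (6 and 4 with the medians set to 0). Scn3b, a beta subunit, had 6.61, 6.68 and 6.59 at P56 and 9.29, 9.34 and 9.26 at P7, and Scn4b, the beta subunit linked to fast repetitive firing, had 10.81, 10.91 and 11.10 at P56 and 10.16, 10.39 and 10.40 at P7. The beta subunits thus lay on opposite sides, with no overlap in either. Fgf13 (-1.25) and Scn3a (-0.63, under the lower quartile at P56) fell. Scn2a fell by 1.12 on the probe set used, but its other 13 probe sets changed by -1.26 to 0.88, and no direction is given for the gene.

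Potassium and HCN channels had 8 of 34 higher and 17 lower (15 and 11 with the medians set to 0). Kcnmb4, a subunit of the BK channel, had 11.42, 11.30 and 11.26 at P56 and 10.03, 10.32 and 10.34 at P7, while Kcnq5 (-1.78), Kcnb2 (-1.60), Hcn3 (-1.13) and Kcnq3 (-0.97) fell. In the calcium buffer, pump and exchanger list 9 of 26 rose and 10 fell (15 and 6 with the medians set to 0). Ocm (-1.77), oncomodulin, Mcu (-1.16), the mitochondrial uniporter, Hpcal4 (-0.85) and Slc8a1 (-0.73), a sodium-calcium exchanger, fell. In the IP3 and mGluR1 pathway, the main calcium signal of Purkinje cell spines, 7 of 20 rose and 9 fell, all by less than 1 (10 and 4 with the medians set to 0). Gna11 (-0.71), Prkcd (-0.70), Orai2 (-0.71) and Gnb1 (-0.47) were lower, and Gng13 was higher.

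Of 36 vesicle release genes 6 rose and 16 fell (17 and 10 with the medians set to 0). Rims2 (1.03) and Rims3 (0.96), active zone proteins, and Sv2c (1.07), a vesicle protein, rose, and Stx1a (-1.39), a fusion protein, and Rab3b (-1.09) fell. Postsynaptic scaffolds had 7 of 19 higher and 6 lower (12 and 4 with the medians set to 0). Lrrc7, densin, had 5.76, 5.78 and 5.56 at P56 and 8.41, 8.51 and 8.51 at P7, with the P56 values under the lower quartile, and Homer2 (-1.43, with -2.37 on its other probe set), Dlgap3 (-0.86) and Dlgap2 (-0.62) fell, while Iqsec2 (0.50) rose. Dendrite and actin regulators had 6 of 30 higher and 14 lower (14 and 10 with the medians set to 0). The larger changes among them were falls, in Rac3 (-2.12), a small GTPase, Kalrn (-1.71), kalirin, Dbn1 (-1.67), drebrin, Actn1 (-1.54) and the spectrin Sptbn1 (-1.51).

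Transcription factors of Purkinje cells divided, 9 of 34 higher and 15 lower, a balance that turned round under both other scalings. Hes3, a repressor of the Hes family, had 12.51, 12.72 and 12.62 at P56 and 11.36, 11.47 and 11.48 at P7. Esrrb, an orphan nuclear receptor, had 8.66, 8.82 and 8.89 at P56 and 10.63, 10.47 and 10.45 at P7. Those pairs of groups were apart in opposite directions. Bhlhe41 (1.14) and Bhlhe40 (0.82), clock repressors, rose, and Ebf3 (-1.34) and Skor1 (-0.95) fell. Clock genes had 6 of 19 higher and 6 lower (10 and 3 with the medians set to 0), with Cry1 (1.02), a repressor of the clock, rising and Ciart (-0.68), another repressor, falling. The labels give no hour of collection, and clock genes vary over the day. Thyroid hormone and nuclear receptor genes had 6 of 21 higher and 8 lower at a median of 0.02, with the balance turned round under both other scalings, with Hr (0.77) and Esrra (0.75) rising and Nrgn (-2.00), a target of thyroid hormone, Rxrg (-1.84, under the lower quartile at P56) and Rarb (-0.83) falling. Activity-regulated genes had 5 of 27 higher and 9 lower, again turned round under both other scalings, with Ier2 (1.19) rising and Dusp6 (-1.06), Sik1 (-0.93), Nr4a2 (-0.88) and Btg2 (-0.77) falling.

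Chromatin genes were mostly lower on the deposited values, as were 54.4% of the brighter genes. Of 23 DNA methylation and demethylation genes 5 rose and 12 fell (10 and 8 with the medians set to 0). Tet1, which oxidises methylcytosine, had 8.38, 8.77 and 8.91 at P56 and 11.19, 11.09 and 11.12 at P7, with falls of like size on its other 2 probe sets (-2.36 and -2.01). Tet3 (-1.51), Uhrf1 (-1.39, under the lower quartile at P56), the partner of the maintenance methyltransferase in dividing cells, and Zbtb33 (-1.02) fell, and Gadd45a (1.02) rose. A second probe set of Tet3 read -0.36, so the size of its fall is uncertain. Of 31 Polycomb and H3K27 genes 17 fell and 5 rose (13 each with the medians set to 0). Ezh2, the H3K27 methyltransferase of dividing cells, had 7.48, 7.80 and 7.90 at P56 and 9.75, 9.65 and 9.64 at P7. Pcgf6 (-1.70), Rybp (-1.50) and Rbbp4 (-1.37) fell with it, and Phf1 rose by 1.24. Of 28 BAF and CHD remodellers 22 fell and 1 rose (12 and 5 with the medians set to 0). Among the falls were Actl6a (-1.31), the BAF subunit of neural progenitors, Smarcd2 (-1.06), Smarce1 (-1.04), Arid2 (-0.96) and Smarcb1 (-0.95). The related gene Actl6b, named after its values were seen, fell too (-0.86, and -0.60 with the medians set to 0). The fall was thus not particular to Actl6a. Neuronal splicing and RNA-binding genes had 9 of 38 higher and 20 lower (15 each with the medians set to 0), with falls in Ptbp3 (-1.50), Ptbp1 (-1.11), the splicing repressor that neurons switch off, Msi1 (-1.41), of neural progenitors and glia, Elavl2 (-1.35) and Celf5 (-1.01). Since cell cycle and progenitor genes were lower at P56 as well, their part in the falls of Ezh2, Uhrf1, Actl6a, Ptbp1 and Msi1 was not tested.

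Genes of the respiratory chain rose and fell side by side. In complex I, 16 of 35 nuclear genes rose and 12 fell (median 0.13). Accessory subunits had 16 of 29 higher and 7 lower (median 0.36), and core subunits had 0 of 6 higher and 5 lower (median -0.30; 1 and 2 with the medians set to 0). Ndufs5, an accessory subunit, had 12.33, 12.11 and 12.21 at P56 and 10.18, 10.11 and 10.05 at P7. Ndufa12 (1.84), Ndufa1 (1.76), Ndufa5 (1.40) and Ndufb2 (1.40), also accessory, rose. In complexes II to V 17 of 41 rose and 12 fell. Cox17, the copper chaperone of cytochrome oxidase, had 12.07, 12.18 and 12.02 at P56 and 8.78, 8.71 and 8.52 at P7, a rise of 3.42 (SE 0.10, adjusted p = 5.37e-14 in limma). Atp5l (1.35) and Atp5k (0.93), small subunits of the ATP synthase, Cox6a1 (1.04) and Uqcr10 (0.97) rose. Micos10, a subunit of the complex that shapes mitochondrial cristae, had 12.95, 13.03 and 12.90 at P56 and 10.50, 10.48 and 10.39 at P7. Many of these genes are short and have near-identical processed copies in the genome, and a probe cannot tell such copies apart.

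Of 28 genes of glycolysis and the citric acid cycle 18 fell and 2 rose (median -0.24; 8 and 9 with the medians set to 0), with Ldha (-1.23), lactate dehydrogenase, Idh2 (-0.93), Pgk1 (-0.80), Mdh2 (-0.71) and Cs (-0.70), citrate synthase. Cholesterol synthesis genes fell more: 17 of 21 were lower and 2 higher (median -0.52; 13 and 4 with the medians set to 0). Lss, lanosterol synthase, had 7.72, 7.75 and 7.98 at P56 and 9.79, 9.81 and 9.70 at P7. Sqle, squalene epoxidase, had 8.72, 8.60 and 8.67 at P56 and 10.35, 10.37 and 10.33 at P7. Nsdhl (-1.71), Fdps (-1.65) and Srebf2 (-1.10), the factor that switches this pathway on, fell with them. The ages did not overlap in any of the 5, which were named for their large changes, nor in 64% of all genes. Oligodendrocytes and astrocytes make much of the brain's cholesterol. On the deposited values the markers of both averaged lower at P56, as given above. The astrocyte median was -0.01 after quantile normalization and 0.03 with the medians set to 0. The part of these cells was not tested. CCAAT was in 16 of 23 promoters of these genes (69.6%, for 18 genes), against 37.4% of all promoters, and TCACNCCAC, a sterol element bound by SREBP, in 1 of 23 (4.35%), against 1.24%. The promoter of Lss (GRCm38.p6 chr10:76531355-76531654, plus strand), shown because Lss fell most in the list and its promoter holds the motif, reads, with ATTGG in capitals:
Lss: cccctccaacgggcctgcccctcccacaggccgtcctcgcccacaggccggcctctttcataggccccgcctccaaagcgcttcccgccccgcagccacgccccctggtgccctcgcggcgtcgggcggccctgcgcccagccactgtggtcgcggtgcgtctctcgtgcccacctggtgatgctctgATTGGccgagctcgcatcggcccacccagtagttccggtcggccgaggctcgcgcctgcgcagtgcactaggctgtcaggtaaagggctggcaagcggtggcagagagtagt

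Cytosolic ribosomal protein genes, of which 32 of 54 were measured, had 11 higher and 11 lower (12 and 10 after quantile normalization, 17 and 7 with the medians set to 0) and a median of 0.00. The spread was wide: Rps21 (2.00), Rps29 (1.89), Rps12 (1.73) and Rpl23 (0.97) rose, and Rps20 (-1.27) fell. Rps21 had 12.19, 12.11 and 12.00 at P56 and 10.24, 10.07 and 9.97 at P7. Pseudogenes of these genes are common and nearly identical, so single members are uncertain. Translation factors had 11 of 29 higher and 11 lower (16 and 10 after quantile normalization, 18 and 7 with the medians set to 0). Eif4e (1.01), which binds the cap of mRNA, and Eif3a (0.86) rose, and Eif6 (-1.39), Eif3b (-1.02) and the helicase Eif4a1 (-0.84) fell. The other 2 probe sets of Eif4e changed by 0.19 and 0.78.

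The proteasome divided by subunit. Of 31 genes 13 rose and 15 fell, with the balance turned round under both other scalings. Psmb5, which carries the chymotrypsin-like site, had 10.88, 10.69 and 10.73 at P56 and 13.06, 13.13 and 13.12 at P7. Psmb3, a structural beta subunit, had 11.15, 11.03 and 10.93 at P56 and 13.22, 13.14 and 13.16 at P7. Psma7, an alpha subunit, had 11.61, 11.47 and 11.55 at P56 and 10.48, 10.47 and 10.51 at P7. The 3 genes did not overlap between the ages, as was so for 64% of all genes, and the beta genes lay opposite to the alpha gene. Of the 7 constitutive beta subunits 5 fell and 2 rose (median -0.78), of the 7 alpha subunits 4 rose and 3 fell (median 0.40), and of 15 subunits of the regulatory cap 5 rose and 7 fell (median -0.15). Psmb4 (-1.79) and Psmd2 (-1.24) fell as well. Heat shock and chaperone genes had 5 of 26 higher and 12 lower (11 and 7 with the medians set to 0). Hspb1, a small heat shock protein, had 9.01, 9.20 and 9.03 at P56 and 11.70, 11.52 and 11.49 at P7, Hspa12a (-1.64) and Cct2 (-0.69), a chaperonin subunit, fell, and the co-chaperones Bag3 (0.99) and Hspe1 (0.61) rose.

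Among MHC class I and interferon genes 4 of 16 rose and 5 fell at a median of 0.05, with the balance turned round under both other scalings; Ifit3 (0.96, under the lower quartile at P7), Ifi27 (0.51) and Bst2 (0.49) rose, and Irf9 (-0.79) and Stat2 (-0.53, not called after quantile normalization) fell. Of 27 inherited ataxia genes 5 rose and 13 fell (12 and 7 with the medians set to 0). Elovl4 (-1.47), which makes very long chain fatty acids, Atxn10 (-1.07), Atxn3 (-0.97) and Ano10 (-0.84) were lower, and Syne1 (0.78), a nuclear envelope protein, was higher.

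Small noncoding RNA genes held the largest rises. Of 90 measured, 55 rose (61.1%) and 6 fell (6.67%), 26 and 4 of them by at least 1, with a median of 0.38. Of the 90, 50 were under the lower quartile at P7 and 35 at P56. These RNAs include guides of ribosomal RNA modification (snoRNAs, 32 of 52 higher and 3 lower), Y RNAs, which bind the Ro protein, and the RNA parts of RNase P and RNase MRP. Noncoding RNAs are not translated, and how these came to be in the captured RNA was not tested. Rny1, a Y RNA, had 13.13, 12.11 and 12.78 at P56 and 5.04, 4.99 and 4.71 at P7, a change of 7.76 (SE 0.32, adjusted p = 2.89e-12 in limma). Rny3, the other Y RNA, had 14.08, 13.39 and 13.84 at P56 and 10.76, 10.52 and 10.73 at P7. Rpph1, the RNase P RNA, had 13.42, 13.38 and 13.38 at P56 and 11.65, 11.60 and 11.39 at P7. The P7 values of Rny1 were under the lower quartile, so the size of its change rests on a background level, and those of Rny3 and Rpph1 were far above it. Snord22 (4.61), Snord61 (4.33), n-R5s136 (3.91), a 5S ribosomal RNA gene, Snord87 (3.66), Snora73b (3.18) and Rmrp (1.81), the RNase MRP RNA, rose. Terc (-1.71), the telomerase RNA, Scarna17 (-1.50), Snord57 (-1.27) and Snora52 (-1.17) fell.

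The P56 arrays scattered more for these RNAs than for other genes. Over the 26 that rose by at least 1, the median standard deviation was 0.35 at P56 and 0.083 at P7, and P56 replicate 1 was the highest of the P56 arrays in 22 of the 26. Without that array 53 of the 90 were still called higher and 6 lower, and leaving out other arrays gave 49 to 55 higher and 5 to 6 lower. Snord61, with 9.80, 7.28 and 8.30 at P56 and 4.18, 4.18 and 4.04 at P7, shows the spread. Of the 26, 11 were under the lower quartile at P7. Many small RNAs lie in introns of other genes or have near-identical copies, which the probes may read. Among protein-coding genes the largest rises under the naming rule were Usp17ld (3.92), one of a family of near-identical deubiquitinases, Cox17, Kazald1 (2.83), a secreted protein, Etnppl (2.76), which breaks down phosphoethanolamine and was under the lower quartile at P7, Tmem256 (2.65) and Micos10.

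MicroRNA genes rose in 150 of 286 (52.4%) and fell in 7 (2.45%), with a median of 0.25, but 211 of the 286 were under the lower quartile at P7, and the counts were 110 and 16 after quantile normalization and 260 and 0 with the medians set to 0. A probe set on these arrays may read the precursor or its host transcript as well as the mature form. The microRNA genes that rose by at least 1 were Mir6516, Mir320 and Mir688. Mir6516 had 9.87, 8.54 and 8.81 at P56 and 6.88, 6.92 and 7.09 at P7. Mir320 had 9.11, 8.27 and 8.64 at P56 and 7.55, 7.32 and 7.52 at P7. Mir688 had 7.50, 7.42 and 7.17 at P56 and 6.07, 6.25 and 6.17 at P7. The ages were apart in each, and P56 replicate 1 was the highest array in each. The mature sequences of Mir6516 (GRCm38.p6 chr11:117077370-117077391 and chr11:117077412-117077433, plus strand) and Mir688 (chr15:102671802-102671821, minus strand), from RefSeq, are shown with the seed, bases 2 to 8, in capitals:
mmu-miR-6516-5p: uUUGCAGUaacagguguggaca
mmu-miR-6516-3p: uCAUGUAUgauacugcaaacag
mmu-miR-688: uCGCAGGCgacuacuuauuc
The 3 seeds differ from one another.

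The arrays at P15 and P21 placed these changes in time. Comparisons that follow share the P7, P21 or P56 arrays with each other, so their values are set side by side and were not correlated. Over all genes the median change was 0.02 at P21 against P7 and -0.03 at P56 against P21. Cell cycle genes had a median of -1.11 at P21 against P7 and -0.19 at P56 against P21, and granule cell progenitor genes -1.18 and -0.27, so most of their fall lay before P21. Growth cone genes fell in both spans (-0.70 and -0.55). Guidance receptors (-0.01 and -0.73), contactins and cadherins (-0.02 and -0.81), synaptic adhesion genes (0.09 and -0.76), matrix genes (0.04 and -0.77) and cholesterol genes (0.10 and -0.73) had medians close to 0 at P21 and below 0 from P21 to P56. Single members departed from those medians: Cdh13 averaged 10.10 at P7, 8.91 at P21 and 7.98 at P56, and Dcc 8.46 at P7, 7.62 at P21 and 6.44 at P56, so part of their fall lay before P21. The same held for Cdh9, Cntn5 and Pcdh11x. GABA and glycine receptors (0.47 and -0.66) and oligodendrocyte (0.68 and -1.12) and interneuron markers (0.57 and -0.85) were higher at P21 before they were lower at P56. Glra1 shows this, at 9.19 at P15 and 10.63 at P21. Ribosomal protein genes had -0.42 and 0.36, below both ends in between, and small noncoding RNAs had 0.03 and 0.34. The interval from P21 to P56 is the longest of the series and no array lies within it.

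**Figure D4:**
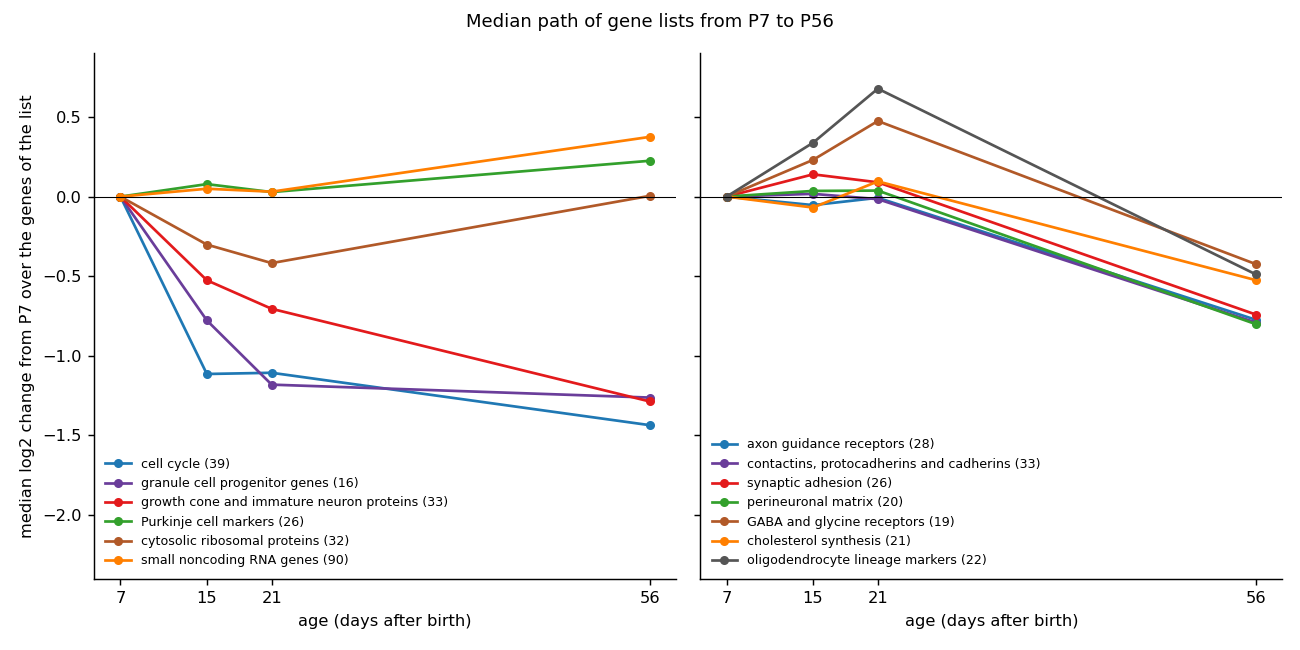
Median log2 change from P7 over the genes of a list at P15, P21 and P56, plotted against age in days, with the number of genes in brackets. In the left panel cell cycle and granule cell progenitor genes fall by P21 and small noncoding RNAs stand at 0.03 at P21 and 0.38 at P56, and in the right panel the medians of the adhesion, matrix, guidance and cholesterol lists are lower at P56 than at P21.

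Counted by gene, the 287 genes that rose by at least 1 had made a median of 9.09% of their change by P15 and 10.8% by P21, and 168 of them had moved by less than 0.25 by P21. The 1368 genes that fell by at least 1 had made 21.3% by P15 and 23.7% by P21, and 458 of them had moved by less than 0.25. By P21, 6.97% of the risers and 23.7% of the fallers were more than 50% of the way. These shares share the P7 and P56 arrays with the changes that chose the genes and are given as a description. Late falls were led by Pla2g5, Trim13 (-3.13), a ubiquitin ligase, Gabra3, Vat1 (-2.54) and Slc41a2 (-2.39), a magnesium transporter. Trim13 had 6.16, 6.99 and 6.68 at P56 and 9.73, 9.74 and 9.74 at P7, and stood at 10.02 at P15 and 9.58 at P21. Early falls, at least 80% made by P15, were led by Tnnt1 (-2.63), a troponin, Fscn1 (-2.61), an actin bundler, Arid3c (-2.45), Lbh (-2.44) and Slc17a8 (-2.29), the glutamate transporter VGLUT3. Slc17a8 had 6.24, 6.28 and 6.19 at P56 and 8.68, 8.48 and 8.41 at P7, and stood at 6.48 by P15. The 4 genes that rose early were Zfp931 (1.24), Spa17 (1.07), Sntg1 (1.06) and Ermn.

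Calls also differed by the length of a gene in the genome. Among protein-coding genes under 2 kb, 31.2% of 1705 rose and 6.57% fell, and among those of 500 kb or more, 16.6% of 211 rose and 57.3% fell, with medians of 0.14 and -0.32. Signal differed with length as well: 1184 of the 1705 shortest genes were under the lower quartile at P56. Among the brighter genes alone, 31.6% of 196 under 2 kb rose and 37.2% fell (median -0.01), and 19.1% of 162 of 500 kb or more rose and 59.3% fell (median -0.35). With the medians set to 0 those medians were 0.25 and -0.09, so the order by length stayed while the sign of most classes did not. Length, signal and biotype move together here, and their parts were not tested.

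**Figure D5:**
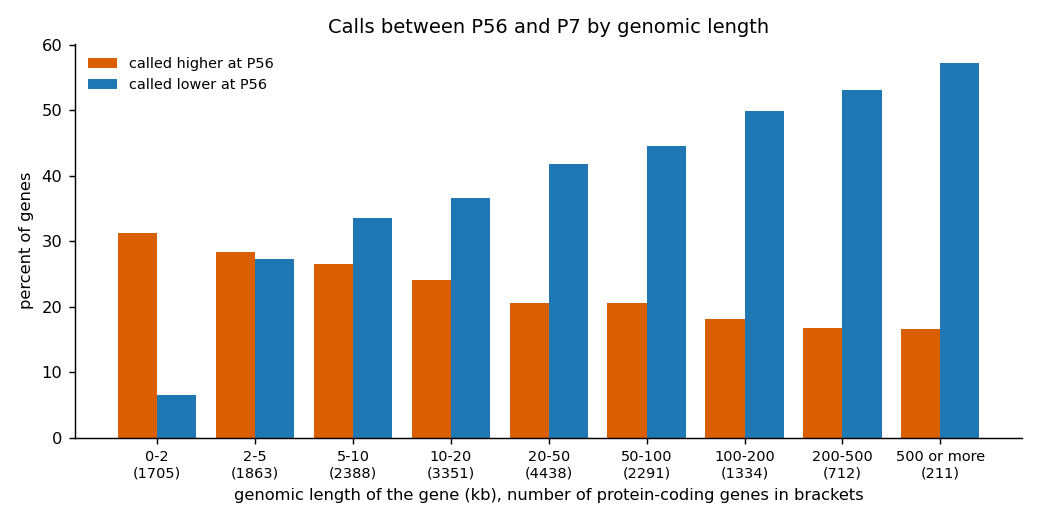
Percent of protein-coding genes called higher and lower at P56 than at P7, by genomic length class in kb, with the number of genes in each class in brackets. The share called lower runs from 6.57% under 2 kb to 57.3% at 500 kb or more, and the share called higher from 31.2% to 16.6%.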

How the data were processed

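RNA bound to EGFP-tagged ribosomes was measured on 15 Affymetrix arrays, 3 at each age. The deposited values were log2 signals per probe set, made by the authors with Affymetrix Power Tools, per the submitters' processing notes; how probes were summarised is not given in the sources used here, nor is the log base, which was read from the range of 3.15 to 14.08. They were used as deposited. Groups came from the sample titles.

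A mean per age was fitted to all 15 arrays with limma 3.58.1 in R 4.3.3 (10 residual degrees of freedom and 6.5 from the prior), for 22092 probe sets, with Benjamini-Hochberg adjustment over all of them and a call at an adjusted p under 0.05. The code was tested on simulated data. Of the probe sets 20996 had 1 symbol in the platform annotation of 2016, 91 had several and 1005 are unnamed here. Each of 19500 genes was read from its brightest probe set, by the mean of all arrays (787 genes had several), and 49 lists held 1239 genes, 1124 of them measured, 6 through a synonym. Members and lists were chosen with earlier results of these data known. Genes were named by rule: the 15 largest called rises and falls whose ages did not overlap and whose higher mean was above the array median, up to 5 called members with the largest changes per list, lists of 11 or fewer in full, all Purkinje cell markers, the 5 largest early and late changes, Pcp2 and Rpl10a, 300 genes in all; small noncoding RNAs and microRNAs were named after their values were seen. The number of arrays limits precision.

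Other scalings, filters, fits and arrays left out are compared at the end. Replicate numbers did not pair the arrays: the deviations of same-numbered arrays at P56 and P7 correlated at 0.012, -0.024 and -0.016. Promoter and microRNA sequences came from RefSeq tables on GRCm38.p6.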

Additional observations from a re-analysis of the deposited data

How the results depend on the processing

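The balance of rises and falls rested on the scaling. With the array medians set to 0, 12284 probe sets were called higher and 4811 lower, 871 and 846 of them by at least 1; after quantile normalization 678 and 1004 passed that size. Removing the probe sets below the median of the mean signal left 2541 higher. Calls of at least 1 upward numbered 287 with 1 probe set per gene and 279 with the mean of a gene's probe sets, among fewer features. Testing against a minimum change of 0.5 called 845 higher and 2737 lower. Setting P21 in place of P56, a comparison added after the data were seen, called 3018 higher and 2910 lower, 150 and 255 of them by at least 1. Leaving out 1 array at a time gave 4663 to 5533 higher, 7034 to 7474 lower, and 444 to 473 higher and 1494 to 1583 lower by at least 1. The replicate block, added although the replicate numbers do not pair the arrays, called 5543 higher and 7534 lower.

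The difference between members called higher and lower turned positive after quantile normalization for meningeal markers (2), GABA synthesis (1), Purkinje cell transcription factors (2), nuclear receptors (2), activity-regulated genes (2), the proteasome (1) and MHC genes (4). With the medians set to 0 it turned positive for microglia (9), meningeal (4) and red blood cell markers (1), IP3 signalling (6), sodium (2) and potassium channels (4), calcium buffers (9), GABA synthesis (2), vesicle release (7), dendrite regulators (4), Purkinje cell transcription factors (6), nuclear receptors (7), activity-regulated genes (7), DNA methylation (2), glycolysis (1), the proteasome (5), chaperones (4), MHC genes (7) and ataxia genes (5). Grm8 (0.0086), Itpka (0.0233) and Rora (0.0520) turned positive there too. The cause was not tested. Of the 324 named genes that were checked, 6 lost their call when some single array was left out: Grin2a, Grm2, Grm8, Icmt, Ptprc and Snord57. Genes near the background, many small RNAs among them, are limited by signal.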
